A study of Mus musculus with 11 samples.

Results

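Translation initiation and elongation factors are the proteins that load messenger RNA onto ribosomes, choose the start codon and carry the ribosome along the coding sequence. Their genes were taken from the count table as every symbol that starts with Eif and a digit from 1 to 6, or with Eef and 1 or 2. Symbols ending in -ps and a number, or in -ps alone, which mark pseudogenes, were left out. Of 85 matching symbols 13 were dropped, which left 72 genes of the 55291 in the table. They include inhibitors (Eif4ebp1), kinases of eIF2 (Eif2ak1 to Eif2ak4) and methyltransferases of elongation factors, and also Eif2c5, a symbol that GENCODE M21 annotates as a long intergenic non-coding RNA, and Eif4a3l2, which RefSeq lists as a pseudogene although its symbol does not end in -ps.

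RNA was sequenced from E14 mouse embryonic stem cells, grown feeder-free in serum with LIF plus GSK3 and MEK inhibitors. In the tagged cells the large FACT subunit SPT16, a histone chaperone, was fused at its C-terminus to V5 and to an auxin-inducible degron (AID). Tagged IAA libraries came from cells given 500 nM of the auxin 3-indoleacetic acid (IAA) for 24 hours, 1 library from line 10E and 2 from line 11D. The labels list 4 tagged IAA samples, and 3 were analysed here. Tagged EtOH libraries came from the same lines given ethanol at 0.1% for 24 hours, 2 from each line. Untagged IAA libraries, 3 in number, came from cells without the SPT16 tag given 500 nM IAA for 24 hours. In all groups cells had grown for 48 hours before treatment. The lines were targeted independently. The columns read as untagged carry the code TIR1, and the labels do not say which plant receptor gene or promoter the lines share. Totals ran from 3100127 to 13510163 counts per library. A single transcript, CT010467.1, held 4.27% of 11D EtOH replicate 1 and 2.64% of 10E EtOH replicate 2, while its share elsewhere was 0.129 to 1.58%. With those libraries left out, 30 translation factor genes fell after IAA and 10 rose, against 29 and 10 of 68 tested with all libraries. In the test with all libraries, given below, 29.3% of all genes tested fell and 30.2% rose. The shares over all genes without those libraries are not given. RNA of Supt16, which encodes the degron target, had 284, 258 and 293 CPM (counts scaled to a common library size) in the tagged IAA libraries, against 380, 414, 362 and 387 CPM in the tagged EtOH libraries and 551, 534 and 572 CPM in the untagged IAA libraries. A degron acts on protein, so this RNA checks no label. The 6 embryonic stem cell markers were detected in every group, with a summed level of 1200 to 1310 CPM in tagged IAA libraries, 3100 to 4490 CPM in tagged EtOH libraries and 3570 to 3800 CPM in untagged IAA libraries. All 6 fell after IAA, in the same libraries in which the translation factor genes changed, and their part in those changes was not tested. The 4 primitive endoderm markers summed to 7.13 to 11.6 CPM in tagged IAA libraries, 2.4 to 6.74 CPM in tagged EtOH libraries and 2.87 to 5.31 CPM in untagged IAA libraries, with 1 called higher, and their part was not tested either. The 3 neural markers (1 called higher, 1 lower) summed to 16.5 to 34.9 CPM in tagged IAA libraries and 19.1 to 27.6 CPM in tagged EtOH libraries. The 4 trophectoderm markers (1 called higher, 1 lower) summed to 8.32 to 14.5 CPM in tagged IAA libraries and 11.8 to 19.9 CPM in tagged EtOH libraries. Of 5 fibroblast markers none was called, with sums of 3.3 to 5.23 CPM in tagged IAA libraries and 3.11 to 4.63 CPM in tagged EtOH libraries.

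In initiation, eIF2 with GTP brings the initiator tRNA to the small ribosomal subunit, to which eIF1, eIF1A, eIF3 and eIF5 also bind. The subunit then scans for the start codon. The cap-binding eIF4E, the scaffold eIF4G and the helicase eIF4A form eIF4F, which recruits the messenger RNA, and 4E-BP proteins keep eIF4E away from eIF4G. eIF2B recharges eIF2 with GTP, and 4 kinases that sense different stresses block that step by phosphorylating eIF2. In elongation, eEF1A delivers aminoacyl-tRNA, the eEF1B subunits recharge eEF1A, eEF2 moves the ribosome on, and eIF5A helps it past difficult residues. Embryonic stem cells are known for a low rate of translation that rises as they differentiate.

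After IAA, 29 of the 68 tested translation factor genes fell, 10 rose and 29 did not pass the test in the tagged lines. A gene was called at a false discovery rate (FDR) under 0.05 in edgeR's quasi-likelihood test over 15722 genes with line as a term. Among all genes tested 29.3% fell and 30.2% rose, so the share of translation factor genes that fell was above that background and the share that rose below it. The median log2 fold change was -0.20 for these genes and 0.01 for all genes tested. The largest falls were in Eif4a2, Eif4b, Eif4ebp1, Eef1g, Eif2s2 and Eif3d, the 6 called genes with a loss of at least 2-fold, and the largest rises in Eef1aknmt, Eif1b and Eif4a3l1, the 3 with a gain of at least 2-fold. Falls and rises of that size were called in 9.47% and 16.1% of all genes tested. Tagged IAA libraries lay wholly below tagged EtOH libraries in 27 tested translation factor genes and wholly above in 9. Of all genes tested 25.7% lay wholly below and 28.9% wholly above, so a lack of overlap is common in these data.

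Scaling by library totals in place of TMM, edgeR's trimmed mean of log ratios, moved the log2 fold changes of all genes up to a median of 0.30 and those of the translation factor genes to 0.10. With totals 24 of them rose and 15 fell, against 43.3% and 17.4% of all genes tested. The 15 that fell under both scalings were Eif1a, Eif2s2, Eif2b5, Eif2ak2, Eif3a, Eif3d, Eif3e, Eif3m, Eif4a2, Eif4b, Eif4ebp1, Eif5a, Eef1a1, Eef1e1 and Eef1g. All 10 that rose did so under both, as did all 4742 rises among all genes tested. Library totals moved values up, so keeping a rise is no separate check. No call turned round, among these genes or among all genes tested. The counts and CPM below use TMM over all 10 libraries. Whether a cell held less RNA of a gene, or the culture held fewer cells that express it, cannot be told apart in bulk RNA.

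The calls divided by expression level. Of the 40 tested members with a mean of at least 100 CPM over all 10 libraries, 25 fell and 0 rose. Among all 2553 genes at that level 60.6% fell and 12.6% rose, so the number of falls was close to that of other highly expressed genes. Of the 28 members under 100 CPM, 4 fell and 10 rose, against 23.3% and 33.6% of all 13169 genes at that level. Spearman's rho between the log2 fold change and the mean level over the 68 members was -0.49, a description across genes that come from the same libraries.

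**Figure D1:**
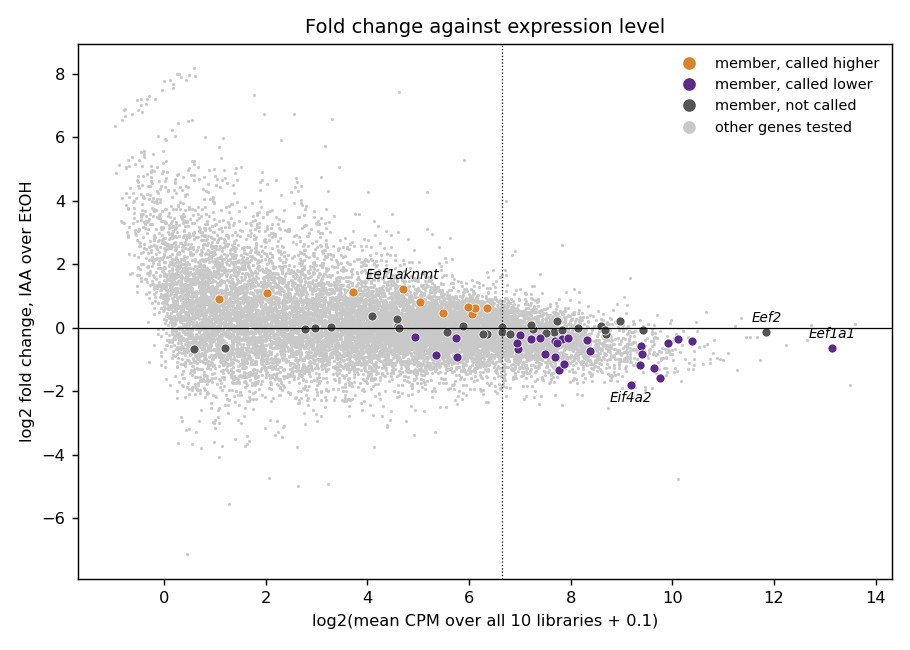
Log2 fold change of IAA over EtOH in the tagged lines (vertical axis) against log2 of the mean CPM over all 10 libraries plus 0.1 (horizontal axis, dotted line at 100 CPM). Each dot is a gene tested; none of the called rises among the translation factor genes (orange) lies right of the line, where 25 of the 29 called falls (purple) lie.

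Together the 72 genes took 2.43 to 2.72% of all counts in tagged IAA libraries, 2.8 to 3.08% in tagged EtOH libraries and 2.8 to 2.96% in untagged IAA libraries. Their summed level was 22938 ± 1950 CPM in tagged IAA libraries (SD, n = 3), against 31369 ± 1970 CPM in tagged EtOH libraries (SD, n = 4) and 30361 ± 1020 CPM in untagged IAA libraries (SD, n = 3). Eef1a1 alone gave 26.8 to 31.9% of those counts after IAA and 29.6 to 35.4% after EtOH. Without Eef1a1 and Eef2 the sum was 12453 ± 708 CPM in tagged IAA libraries (SD, n = 3), against 17191 ± 884 CPM in tagged EtOH libraries (SD, n = 4). The tagged IAA libraries did not overlap the tagged EtOH libraries in any of these sums except the Eef1a1 share.

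**Figure D2:**
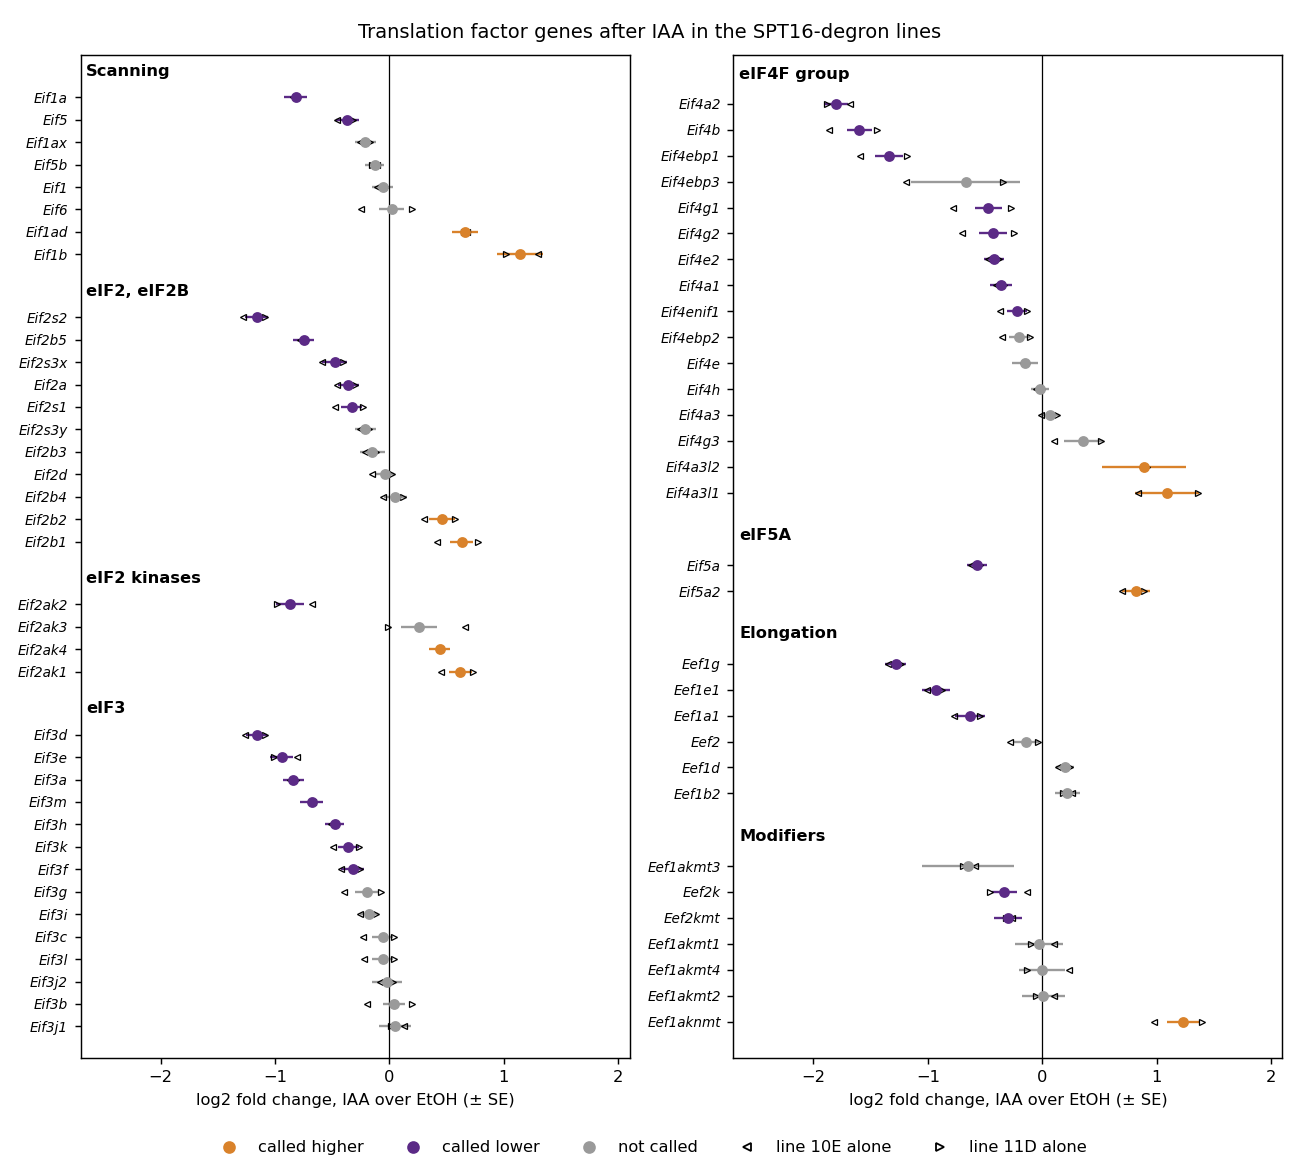
Log2 fold change of IAA over EtOH for the 68 tested translation factor genes, grouped by role, with the standard error (SE) as a bar. Open triangles give the same value in line 10E (1 IAA library) and line 11D (2 IAA libraries). All 39 called genes, which were called from both lines together, lie on 1 side of 0 in both lines.

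The eIF4F group held the 3 largest falls. Of its 18 genes 16 were tested, of which 8 fell and 2 rose, with a median log2 fold change of -0.29. With library totals 3 fell and 5 rose, with a median of 0.01. Of all genes tested 29.3% fell and 30.2% rose, or 17.4% and 43.3% with library totals. Most tested genes of the group, and all 8 that fell, averaged at least 100 CPM over all libraries. At that level 60.6% of all genes fell and 12.6% rose with TMM. Eif4a2, which encodes a second cytoplasmic eIF4A helicase beside that of Eif4a1, lies on chromosome 16 at 23107444 to 23114136 on the plus strand (ENSMUSG00000022884.15, mm10). It had 195, 194 and 217 CPM in the tagged IAA libraries (line 10E first, then 11D), against 637, 608, 690 and 812 CPM in the tagged EtOH libraries and 947, 757 and 787 CPM in the untagged IAA libraries. The IAA libraries of the tagged lines lay far below every other library. The log2 fold change was -1.80 ± 0.10 (SE, edgeR FDR = 2.05e-08) and 10.6% of its 50-base stretches also occur in other genes. Eif4a1, the main eIF4A of growing cells, had 905, 899 and 967 CPM in tagged IAA libraries, against 1070, 1320, 1120 and 1220 CPM in tagged EtOH libraries. These groups did not overlap either, but the fall was only -0.36 ± 0.10 (SE, edgeR FDR = 0.00664), it did not pass with library totals, and 28.4% of its 50-base stretches are shared. The log2 ratio of Eif4a2 to Eif4a1 counts within a library, which needs no scaling, was -2.22, -2.21 and -2.15 in tagged IAA libraries, against -0.75, -1.11, -0.70 and -0.58 in tagged EtOH libraries and -0.33, -0.69 and -0.64 in untagged IAA libraries. Eif4a3, the helicase of the exon junction complex, averaged 157 ± 5.06 CPM in tagged IAA libraries (SD, n = 3) and 152 ± 12.5 CPM in tagged EtOH libraries (SD, n = 4), and was not called.

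Eif4b encodes the cofactor that stimulates eIF4A (chromosome 15, 102073773 to 102097173, plus strand, mm10). It had 292, 429 and 441 CPM in tagged IAA libraries, against 1020, 1090, 1120 and 1220 CPM in tagged EtOH libraries and 992, 1060 and 1020 CPM in untagged IAA libraries. The 10E library was the lowest of the IAA libraries, and all of them were far below the others. The log2 fold change was -1.60 ± 0.11 (SE, edgeR FDR = 8.12e-08). Eif4h, a related cofactor, had 293, 270 and 281 CPM in tagged IAA libraries, against 284, 322, 284 and 263 CPM in tagged EtOH libraries, and these overlapped. Its log2 fold change was -0.02 with TMM and a called 0.28 with library totals.

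Among the 4E-BP inhibitors, Eif4ebp1 fell and the other two were not called. Eif4ebp1 (chromosome 8, 27260329 to 27276674, plus strand, mm10) had 105, 123 and 104 CPM in tagged IAA libraries, against 294, 339, 281 and 231 CPM in tagged EtOH libraries and 210, 241 and 243 CPM in untagged IAA libraries. Every IAA library of the tagged lines lay below every other library. Its log2 fold change was -1.34 ± 0.12 (SE, edgeR FDR = 6.12e-07). Eif4ebp2, the paralogue with the higher level per kilobase after IAA, averaged 383 ± 31.2 CPM in tagged IAA libraries (SD, n = 3) and 440 ± 28.6 CPM in tagged EtOH libraries (SD, n = 4), with an edgeR FDR of 0.0702. It was called, at -0.28 (edgeR FDR = 0.0296), when 11D EtOH replicate 1 was left out. Eif4ebp2 also passed without the EtOH libraries with high CT010467.1, at -0.28 (edgeR FDR = 0.0187). With all 10 libraries in the fit it passed at -0.22 (edgeR FDR = 0.0444), and it passed with other filters on low counts. It stayed uncalled in DESeq2 (adjusted p = 0.0728) and with library totals, at 0.09. The log2 ratio of Eif4ebp2 to Eif4ebp1 counts averaged 1.79 ± 0.21 in tagged IAA libraries (SD, n = 3) and 0.63 ± 0.23 in tagged EtOH libraries (SD, n = 4), without overlap. Per kilobase of exon, Eif4ebp1 stood at 50.4 CPM after IAA and 130 CPM after EtOH, and Eif4ebp2 at 66.3 CPM after IAA and 76.1 CPM after EtOH. Eif4ebp3 was close to background, with 0.594 to 1.45 CPM in tagged IAA libraries and 0.8 to 2.27 CPM in tagged EtOH libraries, and 65.5% of its 50-base stretches are shared with an overlapping transcript.

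The cap-binding and scaffold genes moved less. Eif4e, the cap-binding subunit itself, had 84.3, 90.9 and 96 CPM in tagged IAA libraries, against 80.5, 110, 91.1 and 111 CPM in tagged EtOH libraries, and was not called (edgeR FDR = 0.267). Eif4e2, a cap-binding homologue linked to repression of translation, fell by 0.42 on the log2 scale (SE 0.09, edgeR FDR = 0.00111), with 163 to 180 CPM in tagged IAA libraries and 202 to 251 CPM in tagged EtOH libraries. Eif4g1, the main scaffold, had 703, 858 and 781 CPM in tagged IAA libraries, against 1150, 1270, 1090 and 884 CPM in tagged EtOH libraries. Eif4g2, which drives initiation without eIF4E, had 856, 1080 and 1160 CPM in tagged IAA libraries, against 1220, 1570, 1290 and 1370 CPM in tagged EtOH libraries. Neither gene's groups overlapped, and both fell, by 0.47 (SE 0.12, edgeR FDR = 0.00461) and 0.43 (SE 0.12, edgeR FDR = 0.00752). Without the single 10E IAA library neither passed, at -0.31 (edgeR FDR = 0.0885) for Eif4g1 and -0.28 (edgeR FDR = 0.119) for Eif4g2. Eif4g3, a rarer scaffold, had 13.8, 16.3 and 20 CPM in tagged IAA libraries, against 12.1, 13.8, 12.7 and 12.9 CPM in tagged EtOH libraries. In untagged IAA libraries it had 19.2, 27.9 and 22 CPM. It was not called in IAA against EtOH with all libraries (edgeR FDR = 0.0819). It passed, at 0.42 (edgeR FDR = 0.0497), without 10E EtOH replicate 2. Eif4enif1, which shuttles eIF4E into the nucleus, fell by 0.22 (SE 0.09, edgeR FDR = 0.0402), but with library totals the value was 0.07 and not called. Its call was also lost without any 1 of the libraries 10E EtOH replicate 1, 10E EtOH replicate 2, 11D EtOH replicate 2, 10E IAA replicate 1 or 11D IAA replicate 2, with values from -0.15 to -0.24. The rises in the group were in Eif4a3l1 and Eif4a3l2, Eif4a3-like symbols with few counts, of which RefSeq lists Eif4a3l2 as a pseudogene. Eif4a3l1 had 8.92, 5.52 and 3.9 CPM in tagged IAA libraries, against 4.15, 5.71, 2.17 and 1.51 CPM in tagged EtOH libraries, which overlapped. Its log2 fold change was 1.09 ± 0.28 (SE, edgeR FDR = 0.00381), and without a term for line it was 0.74 and not called. Eif4a3l2 averaged 3.03 ± 1.44 CPM in tagged IAA libraries (SD, n = 3) and 2.04 ± 0.949 CPM in tagged EtOH libraries (SD, n = 4), and its edgeR FDR of 0.0498 was lost in DESeq2 (adjusted p = 0.201) and without 5 of the 7 libraries in turn. No exons of these symbols were found in the annotation used, so reads shared with Eif4a3 could not be measured.

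**Figure D3:**
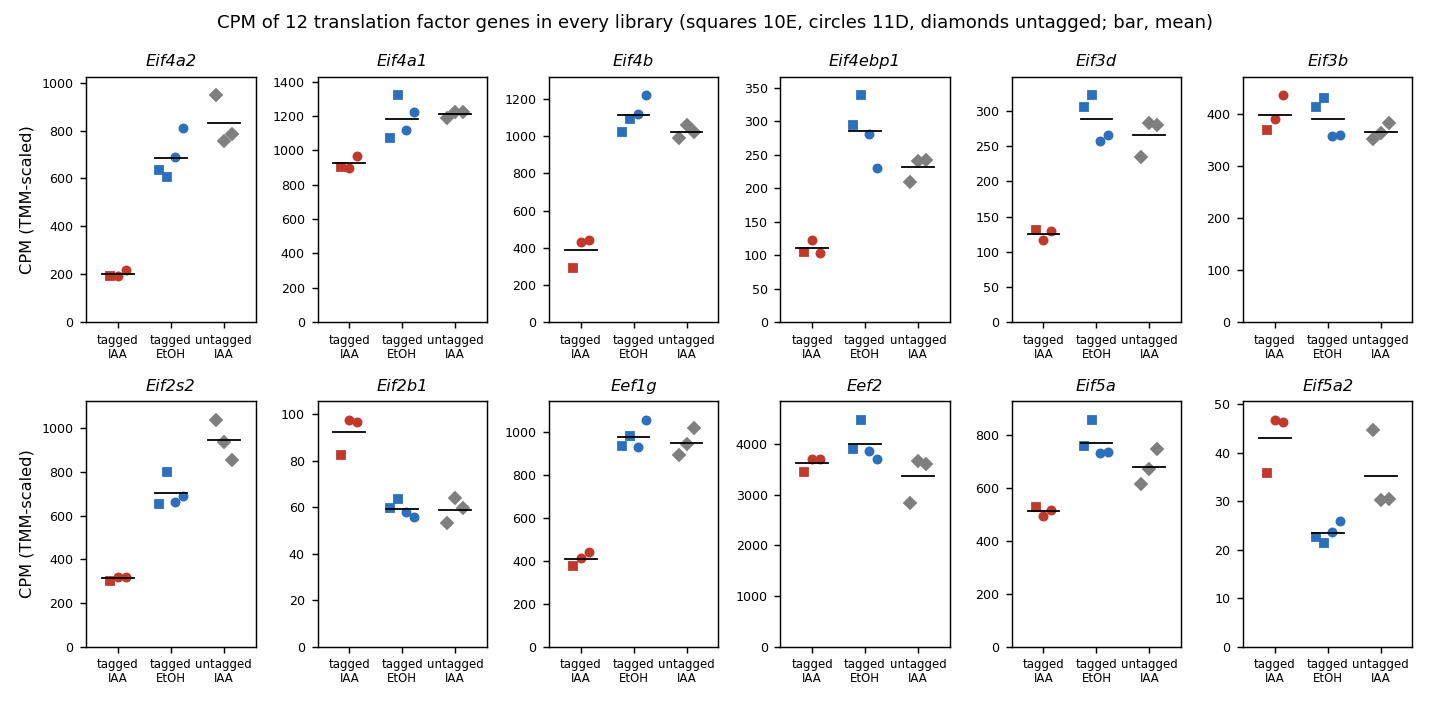
TMM-scaled CPM of 12 translation factor genes in every library, chosen after their values were seen to show falls, rises and uncalled neighbours; red, tagged IAA; blue, tagged EtOH; grey, untagged IAA; black bars are means. In Eif4a2, Eif4b, Eif4ebp1, Eif3d, Eif2s2 and Eef1g the red points lie far below the rest, while those of Eif3b and Eef2 overlap the blue ones and those of Eif2b1 and Eif5a2 lie above them.

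eIF3, the largest initiation complex, split between subunits. Of 14 genes 7 fell, 0 rose and 7 were not called, and with library totals 4 fell and 4 rose. Among all genes tested 29.3% fell and 30.2% rose, or 17.4% and 43.3% with library totals. Most eIF3 genes had at least 100 CPM, a level at which 60.6% of all genes fell and 12.6% rose with TMM. Eif3d, whose protein can itself bind caps of some messages, lies on chromosome 15 at 77958998 to 77970813 on the minus strand (mm10). It had 131, 116 and 130 CPM in tagged IAA libraries, against 306, 322, 257 and 266 CPM in tagged EtOH libraries and 234, 283 and 280 CPM in untagged IAA libraries. The IAA libraries of the tagged lines were far below the others, and the log2 fold change was -1.16 ± 0.09 (SE, edgeR FDR = 1.48e-07). Another gene on the opposite strand, Gm17638, overlaps 43.3% of the Eif3d exons, so counts that ignored strand could hold its reads. Eif3e, a subunit of the outer ring of the complex, had 104, 118 and 123 CPM in tagged IAA libraries, against 164, 204, 224 and 257 CPM in tagged EtOH libraries and 343, 270 and 256 CPM in untagged IAA libraries. Its log2 fold change was -0.94 ± 0.10 (SE, edgeR FDR = 3.33e-06). Eif3a, the large scaffold subunit, had 387, 443 and 474 CPM in tagged IAA libraries, against 664, 749, 755 and 853 CPM in tagged EtOH libraries, a log2 fold change of -0.84 ± 0.09 (SE, edgeR FDR = 4.25e-06). Eif3m, also of the outer ring, fell by 0.68 (SE 0.10, edgeR FDR = 7.54e-05). These 4 genes fell under both scalings.

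Of the remaining 10 genes 3 fell, by less. Eif3b, which with eIF3a, eIF3c, eIF3g and eIF3i makes up the core conserved to yeast, had 369, 391 and 436 CPM in tagged IAA libraries, against 414, 430, 357 and 360 CPM in tagged EtOH libraries. Eif3c averaged 684 ± 30.5 CPM in tagged IAA libraries (SD, n = 3) and 719 ± 50.8 CPM in tagged EtOH libraries (SD, n = 4). Eif3l averaged 420 ± 25.8 CPM in tagged IAA libraries (SD, n = 3) and 437 ± 23.4 CPM in tagged EtOH libraries (SD, n = 4). Their log2 fold changes were 0.04, -0.06 and -0.06 with TMM, none of them called, and 0.34, 0.23 and 0.23 with library totals, all of them called. Eif3h, Eif3k and Eif3f fell by 0.48, 0.36 and 0.32, and none of these passed with library totals. Eif3f overlapped between groups, with 181, 244 and 241 CPM in tagged IAA libraries and 207, 280, 300 and 278 CPM in tagged EtOH libraries, and without the 10E IAA library it was -0.29 (edgeR FDR = 0.0977). Eif3g and Eif3i were not called at -0.20 and -0.18, though Eif3g passed at -0.29 (edgeR FDR = 0.0175) without 11D EtOH replicate 2. The loosely bound Eif3j1 and Eif3j2 stood at 0.05 and -0.02, and 91.8% of the 50-base stretches of Eif3j2 occur in Eif3j1, so these copies are uncertain. In tagged EtOH libraries the CPM per kilobase of exon ran from 4.16 for Eif3j1 and 31.6 for Eif3e to 149 for Eif3h and 205 for Eif3c. After IAA the CPM per kilobase were 17.1 for Eif3e and 195 for Eif3c.

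Of the 11 genes of eIF2, its exchange factor eIF2B and related factors, 5 fell and 2 rose, but with library totals 2 fell and 4 rose. The shares over all genes tested were 29.3% and 30.2%, or 17.4% and 43.3% with library totals. All 5 that fell averaged at least 100 CPM over all libraries, a level at which 60.6% of all genes fell with TMM. Eif2s2 encodes the beta subunit of eIF2 (chromosome 2, 154871410 to 154892935, minus strand, mm10). It had 300, 319 and 321 CPM in tagged IAA libraries, against 655, 802, 661 and 692 CPM in tagged EtOH libraries and 1040, 937 and 857 CPM in untagged IAA libraries. The 3 groups did not overlap one another. The log2 fold change of IAA over EtOH was -1.16 ± 0.10 (SE, edgeR FDR = 3.72e-07). Eif2s1, the alpha subunit that the stress kinases phosphorylate, had 122, 139 and 136 CPM in tagged IAA libraries, against 169, 170, 148 and 170 CPM in tagged EtOH libraries, and fell by 0.33 (SE 0.09, edgeR FDR = 0.0072). Without the 10E IAA library it was -0.25 (edgeR FDR = 0.0714). The gamma subunit has an X-linked and a Y-linked gene in mouse. Eif2s3x fell by 0.48 (SE 0.11, edgeR FDR = 0.0016) and Eif2s3y was not called at -0.21 (edgeR FDR = 0.0657), while their count ratio overlapped between groups. Eif2s3y passed at -0.25 (edgeR FDR = 0.0464) without 11D EtOH replicate 1, and 34.6% of the 50-base stretches of Eif2s3x are shared. Eif2a, an alternative initiator tRNA factor that is no eIF2 subunit, fell by 0.36 (SE 0.09, edgeR FDR = 0.00295), with overlapping groups and no call without a term for line (FDR = 0.0562) or with library totals. Eif2d, a related factor, was not called at -0.04.

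The 5 eIF2B subunits went different ways. Eif2b5, the catalytic epsilon subunit, had 244, 196 and 239 CPM in tagged IAA libraries, against 403, 435, 356 and 361 CPM in tagged EtOH libraries and 360, 374 and 372 CPM in untagged IAA libraries. Eif2b1, the alpha subunit through which phosphorylated eIF2 is sensed, had 82.5, 97.6 and 96.7 CPM in tagged IAA libraries, against 59.5, 63.5, 57.7 and 55.8 CPM in tagged EtOH libraries and 53.3, 63.9 and 59.4 CPM in untagged IAA libraries. Neither gene's tagged IAA libraries overlapped the other groups, below them for Eif2b5 and above them for Eif2b1. Eif2b5 changed by -0.75 ± 0.09 (SE, edgeR FDR = 9.32e-06) and Eif2b1 by 0.63 ± 0.10 (SE, edgeR FDR = 0.000104). Eif2b2, the beta subunit, rose by 0.46 (SE 0.11, edgeR FDR = 0.0032), with 56 to 57.6 CPM in tagged IAA libraries and 37.1 to 49.5 CPM in tagged EtOH libraries. Eif2b3 and Eif2b4 were not called at -0.15 and 0.05. Per kilobase of exon, Eif2b5 stood at 87.2 CPM after IAA and 150 CPM after EtOH, while Eif2b1 stood at 35.8 CPM after IAA and 22.9 CPM after EtOH.

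The 4 eIF2 kinases also divided, with 2 higher, 1 lower and 1 not called, or 3 higher and 1 lower with library totals. Of all genes tested 30.2% were higher and 29.3% lower, or 43.3% and 17.4% with library totals. Eif2ak1 (HRI, the kinase of haem lack and mitochondrial stress) had 105, 99.9 and 118 CPM in tagged IAA libraries, against 72.8, 80.3, 63.2 and 67.9 CPM in tagged EtOH libraries. Eif2ak4 (GCN2, the kinase of amino acid lack) had 82.1, 86.6 and 84.5 CPM in tagged IAA libraries, against 60.6, 60.4, 66.3 and 59 CPM in tagged EtOH libraries. Eif2ak2 (PKR, which double-stranded RNA activates) had 25.9, 27 and 23.8 CPM in tagged IAA libraries, against 41.3, 41.8, 46.5 and 51.1 CPM in tagged EtOH libraries. None of these 3 overlapped between the groups, where 25.7% of all genes tested lay wholly below after IAA and 28.9% wholly above. Their log2 fold changes were 0.62 ± 0.10 for Eif2ak1 (SE, edgeR FDR = 0.000137), 0.44 ± 0.09 for Eif2ak4 (SE, edgeR FDR = 0.000861) and -0.87 ± 0.12 for Eif2ak2 (SE, edgeR FDR = 3.86e-05). Eif2ak3 (PERK, the kinase of endoplasmic reticulum stress) overlapped, with 24.4 to 29 CPM in tagged IAA libraries and 17.2 to 27.9 CPM in tagged EtOH libraries.

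Among the 8 genes of scanning and start selection, 2 fell and 2 rose, while with library totals 1 fell and 4 rose. Over all genes tested 29.3% fell and 30.2% rose, while with library totals 17.4% fell and 43.3% rose. Eif1b, a paralogue of the start-codon gatekeeper Eif1, had 22.8, 21.8 and 20.3 CPM in tagged IAA libraries, against 11.5, 7.09, 12.7 and 8.71 CPM in tagged EtOH libraries and 7.62, 9.54 and 8.97 CPM in untagged IAA libraries. Every tagged IAA library lay above every other library, and the log2 fold change was 1.14 ± 0.20 (SE, edgeR FDR = 0.000282). Another gene on the opposite strand overlaps 12.7% of the Eif1b exons. Eif1 itself had 213, 226 and 210 CPM in tagged IAA libraries, against 213, 247, 240 and 204 CPM in tagged EtOH libraries, and was not called with TMM, though it was at 0.24 with library totals. Eif1ad, an eIF1A-domain gene, had 90.1, 93.2 and 72.4 CPM in tagged IAA libraries, against 51.5 to 57.9 CPM in tagged EtOH libraries, a log2 fold change of 0.66 ± 0.11 (SE, edgeR FDR = 0.000123). The opposite-strand gene Banf1 overlaps 15.3% of the Eif1ad exons. Eif1a, which encodes eIF1A, had 97.3, 119 and 123 CPM in tagged IAA libraries, against 150, 198, 210 and 210 CPM in tagged EtOH libraries, a log2 fold change of -0.82 ± 0.10 (SE, edgeR FDR = 9.14e-06). Its X-linked paralogue Eif1ax did not overlap between groups but changed by only -0.21 (edgeR FDR = 0.0641), and passed at -0.24 (edgeR FDR = 0.0449) without 10E EtOH replicate 1. Eif5, the GTPase activator of eIF2, fell by 0.37 (SE 0.10, edgeR FDR = 0.00421) with overlapping groups and without a call under library totals. Eif5b, the factor of subunit joining, and Eif6, which keeps ribosomal subunits apart, were not called at -0.13 and 0.02.

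The elongation factors hold the most abundant transcripts of the family. Of 7 genes 6 were tested, of which 3 fell and 0 rose, or 3 fell and 2 rose with library totals. The shares over all genes tested were 29.3% and 30.2%, or 17.4% and 43.3% with library totals. Most tested elongation factor genes averaged at least 100 CPM, a level at which 60.6% of all genes fell and 12.6% rose with TMM. Eef1a1, which delivers aminoacyl-tRNA, had 5550, 7620 and 7420 CPM in tagged IAA libraries, against 8550, 10500, 10300 and 11500 CPM in tagged EtOH libraries and 8860, 10200 and 9790 CPM in untagged IAA libraries. The tagged IAA libraries lay below all others, and the log2 fold change was -0.63 ± 0.13 (SE, edgeR FDR = 0.0011), although 39.4% of its 50-base stretches also occur elsewhere. Eef2, the translocase, had 3450, 3700 and 3710 CPM in tagged IAA libraries, against 3910, 4480, 3870 and 3710 CPM in tagged EtOH libraries, and was not called at -0.14 ± 0.11 (SE, edgeR FDR = 0.316). Per kilobase of exon, Eef1a1 stood at 2750 CPM after IAA and 4090 CPM after EtOH, and Eef2 at 1090 CPM after IAA and 1200 CPM after EtOH.

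The subunits that recharge eEF1A did not move together. Eef1g, the gamma subunit (chromosome 19, 8967041 to 8978479, plus strand, mm10), had 376, 412 and 441 CPM in tagged IAA libraries, against 936, 982, 931 and 1060 CPM in tagged EtOH libraries and 893, 944 and 1020 CPM in untagged IAA libraries. No tagged IAA library came near the others, and the log2 fold change was -1.28 ± 0.09 (SE, edgeR FDR = 1.48e-07), with 44.2% of its 50-base stretches shared. Eef1b2, the exchange subunit, had 578, 496 and 630 CPM in tagged IAA libraries, against 426, 538, 462 and 524 CPM in tagged EtOH libraries. Eef1d, the second exchange subunit, had 239, 218 and 253 CPM in tagged IAA libraries, against 219, 216, 202 and 194 CPM in tagged EtOH libraries. Both overlapped and were not called, at 0.22 (edgeR FDR = 0.098) and 0.20 (edgeR FDR = 0.0502). Without 10E EtOH replicate 2 both passed, at 0.28 for Eef1b2 (edgeR FDR = 0.0401) and 0.22 for Eef1d (edgeR FDR = 0.0425), as Eef1b2 did without 11D EtOH replicate 2 at 0.29 (edgeR FDR = 0.0484). Eef1e1, a scaffold of the aminoacyl-tRNA synthetase complex also called AIMP3, had 31.9, 31.9 and 32.9 CPM in tagged IAA libraries, against 61.6, 66.6, 51.5 and 65.7 CPM in tagged EtOH libraries, a log2 fold change of -0.93 ± 0.12 (SE, edgeR FDR = 1.47e-05). Eef1a2, the eEF1A gene of neurons and muscle, was too low to test. It had 3, 0 and 18 counts in tagged IAA libraries, against 1, 0, 1 and 0 counts in tagged EtOH libraries and 0 in every untagged IAA library.

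Of eIF5A, Eif5a fell and its paralogue Eif5a2 rose. Eif5a (chromosome 11, 69916714 to 69921958, minus strand, mm10) had 528, 496 and 516 CPM in tagged IAA libraries, against 761, 859, 731 and 735 CPM in tagged EtOH libraries and 617, 673 and 747 CPM in untagged IAA libraries. Eif5a2 (chromosome 3, 28781276 to 28798846, plus strand, mm10) had 35.7, 46.8 and 46.4 CPM in tagged IAA libraries, against 22.5, 21.3, 23.6 and 26 CPM in tagged EtOH libraries and 44.6, 30.3 and 30.5 CPM in untagged IAA libraries. In both genes the tagged groups stayed apart, but for Eif5a2 the untagged IAA libraries reached into the range of the tagged IAA libraries. The log2 fold change of IAA over EtOH was -0.57 ± 0.09 for Eif5a (SE, edgeR FDR = 7.34e-05) and 0.82 ± 0.12 for Eif5a2 (SE, edgeR FDR = 5.2e-05). Set against untagged IAA, tagged IAA cells gave 0.23 for Eif5a2 (edgeR FDR = 0.213) and tagged EtOH cells gave -0.57 ± 0.14 (SE, edgeR FDR = 0.0437).

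Of 7 genes for enzymes that modify elongation factors, 1 rose and 2 fell, and with library totals 1 rose and 0 fell. Among all genes tested 30.2% rose and 29.3% fell, and with library totals 43.3% rose and 17.4% fell. Eef1aknmt, which methylates eEF1A and is also called METTL13, had 37.9, 39.8 and 45.6 CPM in tagged IAA libraries, against 17.1, 21.2, 16.1 and 16.2 CPM in tagged EtOH libraries and 21, 24.1 and 18.6 CPM in untagged IAA libraries. The tagged IAA libraries lay above all others, and the log2 fold change was 1.23 ± 0.14 (SE, edgeR FDR = 6.56e-06). Eef2k, the kinase that inhibits eEF2, fell by 0.33 (SE 0.11, edgeR FDR = 0.0206), and Eef2kmt, which methylates eEF2, by 0.30 (SE 0.12, edgeR FDR = 0.0463). Without 11D IAA replicate 2 neither was called, at -0.28 (edgeR FDR = 0.108) for Eef2k and -0.22 (edgeR FDR = 0.207) for Eef2kmt. Eef2k also lost its call, at -0.26 (edgeR FDR = 0.068), without 11D EtOH replicate 1, and Eef2kmt kept its call in 1 of the 7 fits that left out a library. The methyltransferase genes Eef1akmt1, Eef1akmt2, Eef1akmt3 and Eef1akmt4 were not called and averaged 1.77 to 8.58 CPM in tagged IAA libraries and 2.45 to 8.34 CPM in tagged EtOH libraries. Besides Eef1a2, the genes too low to test were Eif4e1b, Eif4e3 and Eif2c5, with 0 to 9 counts per library.

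**Figure D4:**
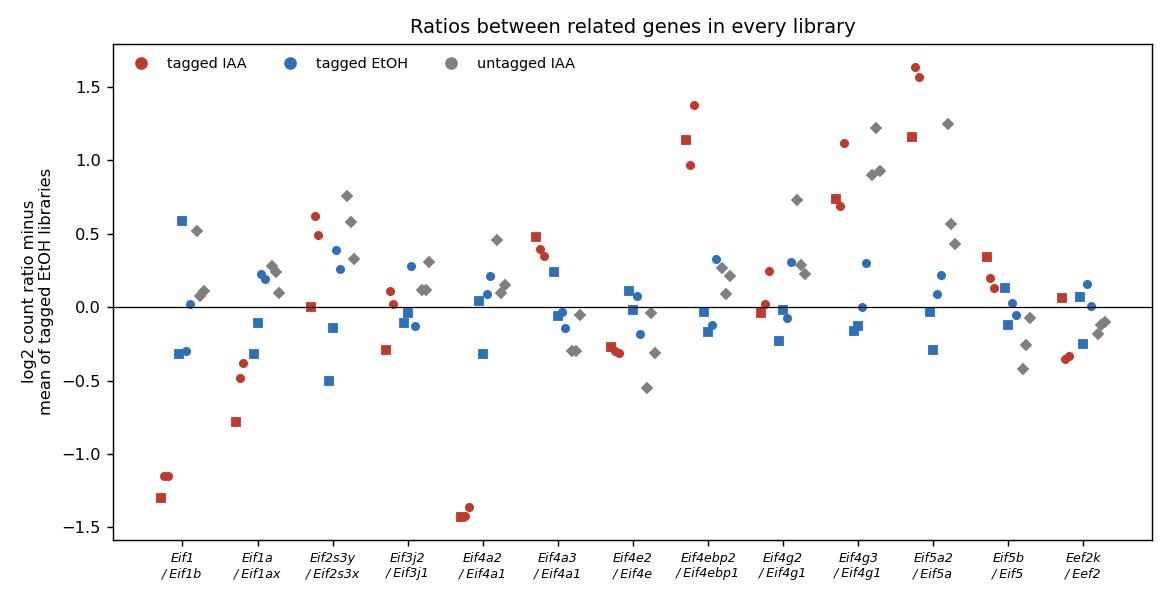
Log2 ratio of counts between related translation factor genes in every library, minus the mean of the tagged EtOH libraries (vertical axis), for the 13 pairs with at least 30 counts of either gene in each library; squares, line 10E; circles, line 11D; diamonds, untagged. Tagged IAA libraries (red) lie furthest below tagged EtOH libraries (blue) for Eif4a2 to Eif4a1 and furthest above for Eif5a2 to Eif5a, and for Eif4g3 to Eif4g1 the untagged IAA libraries (grey) lie beside the red ones.

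Ratios within a library were read for 16 pairs of related genes, as a description that does not depend on scaling. Tagged IAA libraries lay wholly above tagged EtOH libraries in 5 pairs, wholly below in 4 and overlapped in 7. Pairs of other genes were not read, and as single genes 28.9% of all tested lay wholly above and 25.7% wholly below. Beside the pairs given above, the log2 ratio of Eif1 to Eif1b averaged 3.32 ± 0.08 in tagged IAA libraries (SD, n = 3) and 4.52 ± 0.43 in tagged EtOH libraries (SD, n = 4). That of Eif5a2 to Eif5a averaged -3.59 ± 0.26 in tagged IAA libraries (SD, n = 3), against -5.04 ± 0.22 in tagged EtOH libraries (SD, n = 4) and -4.29 ± 0.44 in untagged IAA libraries (SD, n = 3). That of Eif4g3 to Eif4g1 averaged -5.55 ± 0.23 in tagged IAA libraries (SD, n = 3), against -6.40 ± 0.21 in tagged EtOH libraries (SD, n = 4) and -5.38 ± 0.18 in untagged IAA libraries (SD, n = 3). In this pair the untagged IAA libraries stood with the tagged IAA libraries. Between tagged EtOH and untagged IAA cells, tag, line and hormone cannot be told apart.

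The effect of IAA had the same sign in both lines for all 39 called genes and for 55 of the 68 tested. The 39 were called from both lines together, so their like sign is no separate check of the lines. The share of like signs among all genes tested was not computed. Within line 10E, 8 genes rose and 26 fell, where 19.5% and 19.1% of all genes tested did (38.6% in either direction). Within line 11D, 9 rose and 22 fell, where 24.7% and 24.5% of all genes tested did (49.2% in either direction). With library totals 12 rose and 12 fell within line 10E, against 30.6% and 9.16% of all genes tested. With the same scaling 20 rose and 13 fell within line 11D, against 35.3% and 14.6% of all genes tested. Pearson's r between the lines over the 68 genes was 0.93, a description across genes. No gene passed the test of the difference between the lines, in which 0.0% of all genes tested were called by edgeR. None of the translation factor genes passed it with DESeq2 either. Eif4g1, for example, changed by -0.78 in line 10E, which has 1 IAA library, and by -0.27 in line 11D, a difference that did not pass. Under EtOH the lines differed in 1 gene, where 1.2% and 1.92% of all genes tested were higher and lower in 10E (3.12% in either direction). Eif6 had 118 and 132 CPM in 10E EtOH libraries, against 98.3 and 78.6 CPM in 11D EtOH libraries, a log2 fold change of 0.52 ± 0.12 (SE, edgeR FDR = 0.0451). That count was 0 without any 1 of 6 libraries in turn, all but 11D EtOH replicate 1, and 3 without 11D EtOH replicate 1.

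Against untagged cells with IAA, tagged cells with IAA showed 10 genes higher and 30 lower, where 29.0% and 28.9% of all genes tested were higher and lower. With library totals 23 were higher and 18 lower, against 39.8% and 18.8% of all genes tested. This comparison shares its tagged IAA libraries with the one above, so the values are given side by side. Eif4a2 was at -2.05 ± 0.12, Eif4b at -1.52 ± 0.10, Eif2s2 at -1.61 ± 0.11, Eif3e at -1.37 ± 0.13 and Eef1g at -1.25 ± 0.10 (log2 fold change and SE). The called genes Eif3f, Eif3k, Eif5a2, Eef2k and Eef2kmt of IAA against EtOH were not called here. Eif1ax, Eif2b3, Eif2s3y, Eif4e, Eif4g3 and Eef1d were called here alone. Eif4g3 was lower here, at -0.53, while its uncalled value for IAA against EtOH was 0.36. Tagged EtOH cells differed from untagged IAA cells in 6 genes, all lower, where 1.27% and 2.27% of all genes tested were higher and lower (3.54% in either direction). Those were Eif2s1 at -0.34, Eif2s2 at -0.43, Eif2s3y at -0.42, Eif3e at -0.46, Eif4g3 at -0.84 and Eif5a2 at -0.57. In this pair of groups tag, line and hormone cannot be told apart. The count of 6 was 0 without 10E EtOH replicate 1 or untagged IAA replicate 2, and 1 without 11D EtOH replicate 1, 11D IAA replicate 1, 11D IAA replicate 2 or untagged IAA replicate 1.

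Promoters were read from RefSeq windows of GRCm38.p6, 250 bases before to 50 after each annotated start, in which 55 of the 72 genes had an entry. The E-box CACGTG, the letters that MYC with MAX and related factors bind, reads the same on both strands and was found in 14 of the 55 (25.5%), against 8.09% of all 27025 genes of that table. It was present in 7 of 23 matched genes that fell (30.4%), 3 of 9 that rose (33.3%) and 4 of 21 that were not called (19.0%). Genes of like expression level were not set apart in this count. Windows from genes that fell (Eif4a1, Eif4g1, Eif3f), rose (Eif5a2, Eef1aknmt) and were not called (Eef2, Eif4e) are shown because the same letters stand in all 3 kinds. Each runs 5′ to 3′ on the gene's strand with the E-box in capitals.
Eif4a1, chr11:69672587-69672632, minus strand: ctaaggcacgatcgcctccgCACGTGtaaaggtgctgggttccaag
Eif4g1, chr16:20672653-20672698, plus strand: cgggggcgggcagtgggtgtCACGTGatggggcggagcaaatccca
Eif3f, chr7:108934327-108934372, plus strand: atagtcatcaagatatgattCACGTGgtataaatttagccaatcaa
Eif5a2, chr3:28781115-28781160, plus strand: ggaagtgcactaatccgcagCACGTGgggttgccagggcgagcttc
Eef1aknmt, chr1:162548467-162548512, minus strand: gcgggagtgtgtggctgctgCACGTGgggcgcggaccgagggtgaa
Eef2, chr10:81176568-81176613, plus strand: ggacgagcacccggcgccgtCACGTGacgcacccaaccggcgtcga
Eif4e, chr3:138527184-138527229, plus strand: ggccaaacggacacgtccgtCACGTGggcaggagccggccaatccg

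Messages of many translation factors are known to begin with a C and a run of pyrimidines, the TOP motif through which mTOR and LARP1 set their translation. A C followed by at least 4 pyrimidines at the annotated start was found for 3 of the 55 genes (5.45%), against 3.01% of all genes of the table. They were Eif3f, Eif2s3x and Eif2c5, of which Eif2c5 is annotated as a non-coding RNA and was too low to test. The annotated start may differ from the one used in these cells. The first 15 bases of Eif3f and Eif2s3x are shown, with the leading run of pyrimidines in capitals.
Eif3f, chr7:108934415-108934429, plus strand: CTCTCTTTCTCggca
Eif2s3x, chrX:94212637-94212651, minus strand: CTTTTCTCTCCgagc
TGATGCA, the core of the element that ATF4 shares with C/EBP factors, was found on either strand in 1 gene (1.82%), against 3.63% of all genes of the table.

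Other genes of translation were read as lists, beside shares of 29.3% lower and 30.2% higher among all genes tested. With library totals these shares were 17.4% and 43.3%. Of all genes with at least 100 CPM 60.6% fell with TMM, and level was not set apart in the lists. All 6 termination and recycling genes fell, with a median log2 fold change of -0.62. Among them Pelo had only 11 to 69 counts per library and was not called in DESeq2 (adjusted p = 0.125). Etf1, the factor that reads stop codons, averaged 296 ± 21.1 CPM in tagged IAA libraries (SD, n = 3) and 433 ± 23.5 CPM in tagged EtOH libraries (SD, n = 4). With library totals 3 of those 6 fell. Of 17 cytosolic aminoacyl-tRNA synthetases 12 fell and 2 rose, with a median of -0.80, and 12 fell and 4 rose with library totals. Dars, which charges the aspartate tRNA, averaged 67.2 ± 3.81 CPM in tagged IAA libraries (SD, n = 3) and 177 ± 16.4 CPM in tagged EtOH libraries (SD, n = 4). Wars, which charges the tryptophan tRNA, averaged 204 ± 6.71 CPM in tagged IAA libraries (SD, n = 3) and 113 ± 18.8 CPM in tagged EtOH libraries (SD, n = 4). Atf4, the transcription factor whose translation rises when eIF2 is phosphorylated, fell by 1.44 (SE 0.10, edgeR FDR = 1.33e-07), from a list of 10 other initiation factors and eIF2 regulators in which 4 fell and 2 rose, or 3 fell and 3 rose with library totals.

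Among 14 partners and regulators of eIF4F, 6 rose and 3 fell, and 9 rose and 3 fell with library totals. For this and the lists below, 30.2% of all genes tested rose and 29.3% fell, or 43.3% and 17.4% with library totals. Mknk2, a kinase that phosphorylates eIF4E, averaged 556 ± 40.2 CPM in tagged IAA libraries (SD, n = 3), against 94.9 ± 17.2 CPM in tagged EtOH libraries (SD, n = 4) and 71.7 ± 10.3 CPM in untagged IAA libraries (SD, n = 3), a log2 fold change of 2.59 ± 0.11 (SE, edgeR FDR = 4.93e-09). Larp1 fell by 0.97 (SE 0.11, edgeR FDR = 6.52e-06), Gigyf2, a partner of eIF4E2, fell by 0.92 (SE 0.08, edgeR FDR = 7.63e-07), and Mtor rose by 0.44 (SE 0.09, edgeR FDR = 0.000675). Of 8 enzymes that make hypusine on eIF5A and diphthamide on eEF2, 3 fell, with Dph6 at -1.28 and Dph7 at -0.88, while neither hypusine enzyme, Dhps at -0.22 and Dohh at -0.02, was called. With library totals 2 of those 8 fell and 2 rose. Of 9 mitochondrial translation factors 5 fell, with Gfm2 at -1.18, but 1 fell and 2 rose with library totals. Of 4 selenocysteine factors 2 fell, with Eefsec, the elongation factor for selenocysteine, at -1.04, and 1 fell and 1 rose with library totals.

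In the authors' deposited table of IAA against EtOH, fitted over all 10 libraries, 26 translation factor genes had a lower and 10 a higher value at an adjusted p under 0.05, of 71 with one. There 17.8% of genes were lower and 18.8% higher. All 26 and 9 of the 10 were also called in the same direction here.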

How the data were processed

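Whole-number read counts per gene symbol for 10 libraries, which the authors deposited without normalization, were used. Per the submitters' processing notes, STAR and deepTools were used with mm10. The sources used here name no read counter, annotation or strand setting, so genes with overlapping exons or shared sequence are uncertain. The kit marks strand, per the labels. The authors' deposited comparison table holds a base mean (a signal over libraries divided by size factors), a log2 fold change with its error, a Wald statistic (a score), p-values and adjusted p-values from DESeq2, per the file headers. Refitting DESeq2 with line, replicate number and treatment gave 7758 calls, as in that table.

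The labels list 11 samples, of which 10 were analysed here, with 3 of the 4 labelled tagged IAA samples. Nothing ties the column codes 10E and 11D to clone numbers. The TIR1 columns were read as the untagged line, since only they have an IAA replicate 3 and no EtOH. Line 10E has 1 IAA library, which tests assume varies like the others. The labels do not say whether replicates were separate cultures, so p-values may measure technical spread. No pair of replicates was alike within sampling noise, with a chi-square of 3.05 to 28.9 for each degree of freedom.

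edgeR 4.0.16 in R 4.3.3 tested all genes that passed filterByExpr on the 3 groups, with TMM factors and Benjamini-Hochberg FDR under 0.05. Interaction and within-line effects used 1 coefficient per line and treatment. For comparisons with untagged cells all 10 libraries were fitted, and lines 10E and 11D were averaged. SE is the absolute log2 fold change over the square root of F. Ratios added 0.5 to both counts. Exon lengths, overlaps and shared 50-base stretches came from GENCODE M21. DESeq2 1.42.0, other scalings, filters and left-out libraries were alternatives, and the fits were tested on simulated data. Named were the leading called genes of each role or list, related pairs and leading genes of each comparison. All other members are given too. The members and lists were chosen with earlier results of these data known.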

Additional observations from a re-analysis of the deposited data

Results flagged for a closer look

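Eif5 had 258 CPM in 10E EtOH replicate 1, against 327 to 340 CPM in the other tagged EtOH libraries, a gap of 0.845 of the range of the 4 libraries. Eif2s1 had 148 CPM in 11D EtOH replicate 1, against 169 to 170 CPM in the other tagged EtOH libraries, a gap of 0.925 of the range. Chance flags about 1 in 20 groups, and both genes were called lower after IAA with all libraries. Among pseudogene symbols left out of the gene set, Eif2s3x-ps1 had 7 counts in tagged IAA libraries, all in 11D IAA replicate 2, against 0 counts in tagged EtOH libraries and 0 in untagged IAA libraries.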

How the results depend on the processing

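Library totals in place of TMM changed most. With them 24 members rose and 15 fell after IAA, and 23 were higher and 18 lower in tagged IAA than in untagged IAA cells. The member median turned to 0.10 for IAA against EtOH and to 0.04 for tagged against untagged IAA. The sign of the value differed from that with TMM for 17 members, of which 11 were called in neither fit. The 6 called in one of them were Eif1 (0.24), Eif2d (0.25), Eif3c (0.23), Eif3l (0.23), Eif4h (0.28) and Eif4enif1 (0.07), with Eif4enif1 called with TMM and the others with library totals. This scaling shifted all genes by a median of 0.30. With no filter on low counts the median for tagged against untagged IAA was -0.33. The lines under EtOH differed in 3 genes with library totals, with no filter on low counts and with a filter on line-by-treatment groups, the last chosen after seeing the data. The cause was not tested. Leaving out 1 library at a time gave 0 to 3 such genes, and 0 to 6 lower in tagged EtOH than in untagged IAA cells. It gave 23 to 29 falls and 9 to 12 rises after IAA, and 25 to 32 lower and 8 to 11 higher in tagged than in untagged IAA cells. Leaving out both EtOH libraries with high CT010467.1, an alternative added after seeing the data, gave 30 falls and 10 rises. Shares over all genes are not given for the fits with libraries left out. With all libraries 29.3% of all genes tested fell and 30.2% rose after IAA.

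Libraries of different treatments share only a replicate number. In line 11D, the only line with both numbers in both treatments, deviations of same-numbered libraries correlated at 0.309 over 15522 genes. With a replicate block 28 members fell and 11 rose, with 2 calls lost and 2 gained. DESeq2 lost 3 calls and gained 0. Depth limits Eif4a3l1, Eif4a3l2, Eif4ebp3 and the 4 untested genes.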

Other observations

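The pseudogene symbols that share a name with these factors were left out of the comparisons, and 2 of the 13 had 0 counts in every library. Summed over libraries, Eef1a1-ps1 had 1558 counts in the 3 tagged IAA libraries, 3100 in the 4 tagged EtOH libraries and 1580 in the 3 untagged IAA libraries. Eif4a-ps4 had 359 counts in tagged IAA libraries, 694 in tagged EtOH libraries and 420 in untagged IAA libraries. Eif3s6-ps2 had 80 counts in tagged IAA libraries, 168 in tagged EtOH libraries and 140 in untagged IAA libraries. The others had at most 23 counts in any group. These raw sums were not scaled for the number or size of the libraries, so they do not compare levels between groups.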
